A study of Mus musculus with 72 samples.

Results

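The period and cryptochrome repressors of the circadian clock were followed through every library of a mouse study of muscle *Bmal1*. They were chosen by name, as the 8 genes *Per1*, *Per2*, *Per3*, *Cry1*, *Cry2*, *Ciart*, *Bhlhe40* and *Bhlhe41*, out of 55401 genes in the tables, by a rule that used no measured value. Poly(A) RNA-seq was run on 72 libraries from male mice. Gastrocnemius muscle was taken at 10 weeks from 6 wild-type (WT) mice, 6 global *Bmal1* knockouts (KO) and 7 knockouts given a *Bmal1* vector (KO+AAV), and at 40 weeks from 5 mice of each kind. The vector was an adeno-associated virus of serotype 9 that carried HA-tagged *Bmal1* cDNA under CK6, a promoter active in muscle, and was given systemically at postnatal day 5 to pups that lacked *Bmal1* in all tissues. A separate experiment at 10 weeks compared 3 KO mice given the same kind of vector with GFP in place of *Bmal1* (KO+GFP) with 3 KO controls. At 40 weeks 4 KO and 4 KO+AAV libraries were also made from each of lung, liver, heart and white fat, and WT of these tissues was not analysed here. The main tissues were collected at zeitgeber time 1, shortly after lights-on, so each value is a level at a single time of day and says nothing of rhythm or amplitude. The collection time of the GFP experiment and the treatment of its controls are not given in the sources used here. All mice were bred from heterozygous parents, and cells of KO+AAV mice that the vector or CK6 did not reach stayed *Bmal1*-null.

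The clock in mammalian cells is a delayed feedback loop. BMAL1 and CLOCK bind E-box sequences as a pair and switch on the genes of their own repressors. Period and cryptochrome proteins then return to the nucleus as a complex and shut the pair off, CIART (also called CHRONO) binds BMAL1 and represses it by another route, and BHLHE40 and BHLHE41 (DEC1 and DEC2) are basic helix-loop-helix factors that compete for the same E-boxes. *Per1* and *Per2* also answer directly to glucocorticoids and to cAMP, and *Bhlhe40* is known as a hypoxia-responsive gene. In skeletal muscle the loop sets daily programs of fuel use.

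Levels are given as read counts per gene divided by a library size factor, called normalized counts below. Such values can be compared between libraries of 1 table but not between genes, and levels of different genes or tissues are compared only as FPKM, which also divides by transcript length and depth. A gene was called when its adjusted *P* (limma, Benjamini-Hochberg over all genes tested) was under 0.05, and a group was said to stand apart from another when no library of one overlapped the range of the other. Libraries held 9325122 to 41733282 reads on genes in the main gastrocnemius set, 6754312 to 8515400 in the GFP experiment and 36903079 to 50755829 in the other tissues. Defining markers of each labelled tissue were present in all of its libraries, except that *Myl7*, 1 of 6 cardiomyocyte markers and one of the atria, was at 0 in some heart libraries. The deleted gene itself, *Arntl* (the gene of BMAL1), still gave reads in every KO library, and its normalized count at 10 weeks ran from 402 to 634 in WT, with 196 to 296 for KO and 169 to 281 for KO+AAV. WT stood apart from KO, with a log2 fold change of 1.14 (adjusted *P* = 6.59e-05). KO+AAV and KO differed by -0.06 on the log2 scale (adjusted *P* = 0.962), so the count for this gene does not show the vector in muscle at 10 weeks. At 40 weeks *Arntl* ran from 480 to 608 in WT and from 308 to 1039 in KO, overlapping, with a log2 fold change of 0.38 (adjusted *P* = 0.182). In KO+AAV at 40 weeks *Arntl* ran from 268 to 359, apart from WT by 0.86 (adjusted *P* = 0.00429), so at that age its count set WT apart from KO+AAV but not from KO. The highest of these KO values, 1039, belonged to replicate 2, a library described further on. In liver at 40 weeks *Arntl* ran from 584 to 679 in KO and from 781 to 1231 in KO+AAV. These groups stood apart, as in 2.13% of all genes, by 0.58 (unadjusted *P* = 0.0023, adjusted *P* = 0.997, limma). In heart, lung and white fat they overlapped, with differences of 0.32, 0.13 and -0.01 (adjusted *P* = 0.862, 0.578 and 0.987, limma). The cause of the liver difference was not tested.

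The genes lie on 7 mouse chromosomes (GRCm38, GENCODE vM21), and all are protein-coding. *Per1* (ENSMUSG00000020893) is at chr11:69095217-69109960 on the plus strand, *Per2* (ENSMUSG00000055866) at chr1:91415982-91459324 on the minus strand and *Per3* (ENSMUSG00000028957) at chr4:151003652-151044665 on the minus strand. *Cry1* (ENSMUSG00000020038) is at chr10:85131700-85185064 and *Cry2* (ENSMUSG00000068742) at chr2:92403646-92434043, both on the minus strand. *Ciart* (ENSMUSG00000038550) is at chr3:95878503-95882251 on the minus strand, *Bhlhe40* (ENSMUSG00000030103) at chr6:108660629-108666925 on the plus strand and *Bhlhe41* (ENSMUSG00000030256) at chr6:145858243-145865558 on the minus strand. Exons of genes on the other strand overlap 295 bases of *Cry2* (*D930015M05Rik*), 118 of *Bhlhe40* (*0610040F04Rik*) and 1280 of *Bhlhe41* (*Gm43909*, 19.0% of its exon bases). Whether reads were counted by strand is not given in the sources used here, so reads of such pairs cannot be told apart there.

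The promoters of the genes carry different clock elements, and 5 are shown because the repressors below behave differently from one another. The windows are from RefSeq (GRCm38.p6), which gave 6 of the 8 genes, and each is printed up to 250 bases upstream of a transcription start and cut where an annotated exon begins. Capitals mark the E-box CACGTG, the related E-prime box CACGTT, which reads AACGTG on the other strand, and the D-box TTATGTAA, the site of the DBP, TEF and HLF family.
*Per3* (chr4:151044666-151044915, minus strand): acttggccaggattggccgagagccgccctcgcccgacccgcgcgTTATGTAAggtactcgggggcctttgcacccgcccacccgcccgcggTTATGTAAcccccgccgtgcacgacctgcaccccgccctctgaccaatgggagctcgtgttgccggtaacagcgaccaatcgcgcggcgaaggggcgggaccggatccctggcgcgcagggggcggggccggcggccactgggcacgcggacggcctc
*Ciart* (chr3:95882252-95882478, minus strand): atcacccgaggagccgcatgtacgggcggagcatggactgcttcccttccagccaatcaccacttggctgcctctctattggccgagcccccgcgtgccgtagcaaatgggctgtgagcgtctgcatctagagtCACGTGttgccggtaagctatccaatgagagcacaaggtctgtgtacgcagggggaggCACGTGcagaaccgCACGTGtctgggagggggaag
*Cry1* (chr10:85185065-85185304, minus strand): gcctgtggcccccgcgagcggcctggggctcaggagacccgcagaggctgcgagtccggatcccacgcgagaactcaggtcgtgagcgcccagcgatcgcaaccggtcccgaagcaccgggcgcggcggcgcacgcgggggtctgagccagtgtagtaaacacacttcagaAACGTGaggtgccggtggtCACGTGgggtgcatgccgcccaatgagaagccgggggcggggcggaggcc
*Bhlhe41* (chr6:145865559-145865670, minus strand): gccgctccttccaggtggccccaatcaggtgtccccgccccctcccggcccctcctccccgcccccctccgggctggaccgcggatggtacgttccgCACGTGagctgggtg
*Per1* (chr11:69098699-69098947, plus strand): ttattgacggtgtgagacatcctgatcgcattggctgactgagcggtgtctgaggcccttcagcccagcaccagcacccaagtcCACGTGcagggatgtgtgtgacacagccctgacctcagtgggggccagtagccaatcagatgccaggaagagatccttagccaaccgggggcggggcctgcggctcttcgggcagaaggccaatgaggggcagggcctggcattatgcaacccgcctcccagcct
Searched on both strands in windows of 300 bases, CACGTG occurs in 7.15% of 32851 promoters, CACGTT in 4.68% and TTATGTAA in 0.938%. *Ciart* holds 3 copies of CACGTG, beginning at -116, -58 and -44 from its start. *Cry1* holds 1 copy at -60 and a CACGTT at -79, *Bhlhe41* holds 1 CACGTG at -153, and the upstream of 2 windows of *Per1* holds 1 at -166. *Per3* holds none in this window, but 2 copies of TTATGTAA at -205 and -158. *Cry2* holds CACGTT at -166 and no CACGTG. The ROR element core TAGGTCA (2.61% of promoters) and the cAMP response element TGACGTCA (1.79%) were found in none of the windows of these 6 genes. These matches describe letters in short windows and are not measured binding sites. *Per2* and *Bhlhe40* are named here only.

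In WT gastrocnemius at 10 weeks the repressors spanned a wide range of levels per length. The mean FPKM was 18.7 for *Bhlhe40*, 13.2 for *Bhlhe41*, 6.13 for *Cry1*, 5.91 for *Per1*, 4.74 for *Cry2*, 1.44 for *Per3*, 0.97 for *Per2* and 0.84 for *Ciart*. The DEC genes were the most abundant of the 8. Neighbours in this order overlapped between libraries, except that *Bhlhe41* stayed above *Cry1* and *Cry2* above *Per3* in all of them. In KO muscle *Cry1* came first at 9.63 FPKM, overlapping *Bhlhe41*, and *Per3* came last at 0.17 FPKM, overlapping *Ciart*.

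In KO muscle at 10 weeks *Per3*, *Bhlhe40*, *Ciart* and *Bhlhe41* were lower than in WT, while *Cry1* was higher. Of the 8 repressors, 5 were called between WT and KO, where 8.0% of the 16199 genes tested were called. The 4 higher in WT stand beside 4.26% of all genes and the 1 lower beside 3.74%. The same 5 had an unadjusted *P* under 0.01, as did 10.9% of all genes. In 3 of the 8 the groups stood apart, as in 6.06% of all genes.

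*Per3*, the period gene with the least essential role in the core loop, had the widest gap. Its normalized count ran from 147 over a median of 230.3 to 306 in WT, and from 8.41 over a median of 28.0 to 40.8 in KO. Every KO library lay far below every WT library, and the KO mean was 11.4% of the WT mean. WT exceeded KO by 3.18 ± 0.32 on the log2 scale (estimate ± SE throughout; adjusted *P* = 2.54e-08, limma, n = 6 and 6). *Per1*, an early-response period gene, varied more within groups than between them. It ran from 204 to 1260.4 in WT (median 355) and from 135 to 463 in KO (median 188), with a log2 difference of 1.02 ± 0.57 (adjusted *P* = 0.346, limma). *Per2*, whose loss disrupts rhythms in mice, ran from 68.4 to 132 in WT (median 94.8) and from 56.5 to 92.4 in KO (median 72.8). The ranges of *Per2* overlapped and the difference of 0.36 ± 0.19 missed the threshold (adjusted *P* = 0.313, limma).

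The cryptochromes, flavoproteins that carry most of the repression of CLOCK and BMAL1, did not move with *Per3*. *Cry1* ran from 297 to 417 in WT (median 329) and from 459 to 596 in KO (median 525). All KO libraries lay above all WT libraries, and *Cry1* was lower in WT by a log2 value of -0.64 ± 0.12 (adjusted *P* = 0.000296, limma), the KO mean being 155% of the WT mean. *Cry2* ran from 331 to 646 in WT (median 508) and from 427 to 568 in KO (median 529.5), overlapping, with a difference of -0.09 ± 0.32 (adjusted *P* = 0.934, limma).

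Among the other repressors, *Bhlhe40* ran from 896 to 2073 in WT (median 1359) and from 436 to 633 in KO (median 498). The groups stood apart, with a log2 fold change of 1.48 ± 0.18 (adjusted *P* = 6.75e-07, limma). Its paralog *Bhlhe41* ran from 863 to 2042 in WT (median 1466) and from 524 to 1060.3 in KO (median 817), so the ranges overlapped. The *Bhlhe41* difference of 0.87 ± 0.28 was close to the threshold (adjusted *P* = 0.0483, limma), and it was lost in 9 of the 12 fits that left out 1 library. Those were WT replicate 2, 3, 5, 6 or 7 and KO replicate 1, 2, 5 or 7, with an adjusted *P* of up to 0.140 without KO replicate 2. *Ciart* had the lowest mean FPKM of the set in WT, though not in KO. It ran from 16.2 to 59.0 in WT (median 27.2) and from 1.13 to 26.9 in KO (median 4.14), which are 1 to 16 reads per KO library, and differed by 2.15 ± 0.44 (adjusted *P* = 0.00123, limma). The libraries had been sequenced at 2 sites, ICBR and Novogene, and the site was a term in the fit. *Ciart* was the member with a called site effect, 0.96 ± 0.35 higher at Novogene on the log2 scale (adjusted *P* = 0.0444). Within ICBR *Ciart* differed between WT and KO by 2.54 (adjusted *P* = 0.0147) and within Novogene by 1.76 (adjusted *P* = 0.355), with 3 libraries of each genotype at each site. *Per3* differed by 2.63 and 3.72 at the 2 sites, *Bhlhe40* by 1.24 and 1.71, and *Cry1* by -0.55 and -0.72, all with an adjusted *P* under the threshold, and *Bhlhe41* by 0.95 (adjusted *P* = 0.157) at ICBR and 0.79 (adjusted *P* = 0.0249) at Novogene.

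**Figure D1:**
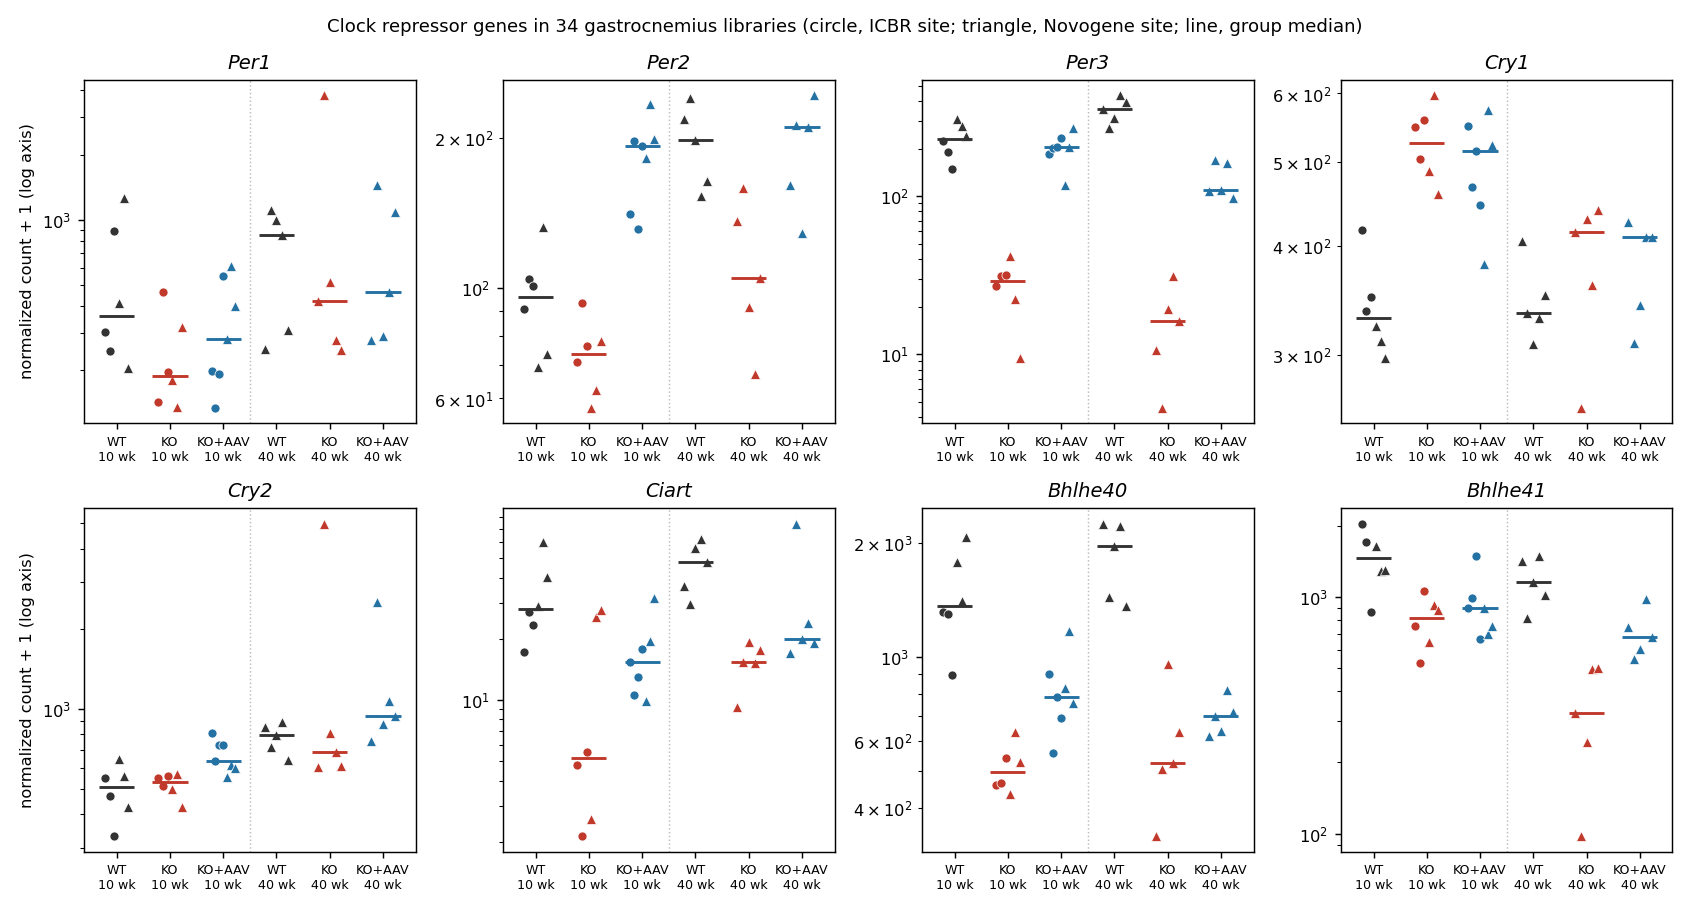
Normalized count + 1 (log axis) of the 8 repressors in gastrocnemius, 1 panel per gene, with 1 point per library (circles, ICBR; triangles, Novogene) and lines at the medians of WT, KO and KO+AAV at 10 and 40 weeks. *Per3* in KO stays at 40.8 or below while every WT library is at 147 or above, and *Cry1* at 10 weeks is the gene in which all KO points lie above all WT points.

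In 10-week muscle with vector *Bmal1*, *Per3* overlapped its WT range and *Per2* was higher than in WT with a small overlap, whereas *Cry1* overlapped KO. Between KO+AAV and KO, 2 of the 8 repressors were called, where 0.204% of all genes tested were called. Both were higher with the vector, as were 0.136% of all genes. At an unadjusted *P* under 0.01 there were 4 (*Per2*, *Per3*, *Ciart* and *Bhlhe40*), as in 2.63% of all genes. *Per3* and *Per2* stood apart between the groups, as did 0.574% of all genes. Between WT and KO+AAV, 3 repressors were called (5.15% of all genes), namely *Per2* and *Cry1*, both lower in WT (2.21%), and *Bhlhe40*, higher in WT (2.94%). The same 3 had an unadjusted *P* under 0.01, as did 8.75% of all genes. All 3 comparisons at 1 age share libraries in pairs, so their values are given side by side and not counted as separate support.

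*Per3* ran from 116 over a median of 202 to 270.1 in KO+AAV, inside the WT range but for 1 library. It exceeded KO by 2.99 ± 0.31 on the log2 scale (adjusted *P* = 6.02e-07, limma), and WT exceeded KO+AAV by 0.19 ± 0.31 (adjusted *P* = 0.819). The KO+AAV mean was 87.9% of the WT mean. Within ICBR *Per3* was higher in KO+AAV than in KO by 2.79 (adjusted *P* = 0.000315) and within Novogene by 3.18 (adjusted *P* = 0.198).

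*Per2* behaved differently from *Per3*. It ran from 130.2 to 232 in KO+AAV (median 191), above all KO libraries, whose highest was 92.4. Its 6 higher libraries also lay above every WT library, the lowest falling just under the highest WT value of 132. *Per2* exceeded KO by 1.30 ± 0.19 on the log2 scale (adjusted *P* = 0.000191, limma) and WT lay below KO+AAV by -0.94 ± 0.19 (adjusted *P* = 0.00151, limma). The mean in KO+AAV was 192% of that in WT, while KO was at 76.6%. The difference from KO was 1.03 within ICBR (adjusted *P* = 0.199) and 1.63 within Novogene (adjusted *P* = 0.0415). *Per2* differed between WT and KO+AAV by -0.72 at ICBR (adjusted *P* = 0.134) and by -1.21 at Novogene (adjusted *P* = 0.0719), so neither site alone carried that call.

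The remaining repressors lay between KO and WT or near KO. *Bhlhe40* ran from 557 to 1168 in KO+AAV (median 785), with a mean at 55.7% of WT, and differed from KO by 0.67 ± 0.17 (unadjusted *P* = 0.000523, adjusted *P* = 0.119, and 0.0256 with DESeq2) and from WT by 0.80 ± 0.17 (adjusted *P* = 0.00367). *Cry1* ran from 380.4 to 573 (median 514) in KO+AAV, overlapping KO and, in 1 library, WT, with a difference of -0.10 ± 0.11 from KO (adjusted *P* = 0.845) and of -0.53 ± 0.11 between WT and KO+AAV (adjusted *P* = 0.00263). At ICBR alone the WT difference from KO+AAV was -0.43 for *Cry1* (adjusted *P* = 0.190) and 0.67 for *Bhlhe40* (adjusted *P* = 0.182), and at Novogene alone -0.64 (adjusted *P* = 0.127) and 0.94 (adjusted *P* = 0.0573). *Ciart* in KO+AAV ran from 8.85 to 30.8 (median 14.3) and *Bhlhe41* from 663 to 1485 (median 899). Neither was called against KO (adjusted *P* = 0.313 and 0.909) or against WT (adjusted *P* = 0.261 and 0.142). *Cry2* ran from 551 to 809.8 and *Per1* from 133 to 612 in KO+AAV, with no call against either group.

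At 40 weeks the same comparison was made with 5 libraries of each kind, all sequenced at Novogene. Of the 8 repressors 5 were again called between WT and KO, but with *Per2* in place of *Cry1*, and all 5 were higher in WT (12% of all genes). At this age 23.5% of all genes tested were called in either direction, so the count stands against a higher background than at 10 weeks. The same 5 had an unadjusted *P* under 0.01 (22.5% of all genes), and 4 stood apart (13.6%).

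*Per3* was the lowest in KO here as well. Its normalized counts were 357, 268, 313, 433 and 394 in WT and 9.63, 3.58, 18.4, 30.3 and 15.2 in KO. KO libraries held 2 to 17 *Per3* reads each, and their mean was 4.37% of WT. The log2 fold change of *Per3* was 4.67 ± 0.35 (adjusted *P* = 3.78e-11, limma, n = 5 and 5). *Per2* was 216, 239, 196, 152 and 163 in WT and 135, 158, 90.4, 66.0 and 103 in KO. The highest KO library for *Per2* passed the lowest WT library, and the difference was 0.84 ± 0.21 (adjusted *P* = 0.00391, limma).

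*Bhlhe41* and *Bhlhe40* both stood apart between WT and KO at 40 weeks. *Bhlhe41* was 1425, 813, 1161, 1490.2 and 1021 in WT and 323, 96.7, 244, 498 and 501 in KO, a log2 fold change of 2.01 ± 0.31 (adjusted *P* = 1.13e-05, limma). *Bhlhe40* was 2242, 1436, 1957, 2211 and 1359.9 in WT and 337, 507, 956, 526 and 634 in KO, a fold change of 1.69 ± 0.20 (adjusted *P* = 1.57e-07, limma). *Ciart*, the BMAL1-binding repressor, was 35.6, 28.8, 54.9, 61.0 and 46.9 in WT and 8.25, 14.3, 18.4, 14.3 and 16.6 in KO. Its groups also stood apart, by 1.59 ± 0.48 (adjusted *P* = 0.0158, limma). *Cry1* was 405, 335, 308, 329.9 and 350.1 in WT and 414, 259.7, 429, 360.5 and 439.9 in KO. Unlike at 10 weeks the *Cry1* groups overlapped, and the difference was -0.12 ± 0.13 (adjusted *P* = 0.537).

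With the vector, *Per3* was the single repressor called against KO at 40 weeks, where 0.259% of all genes were called. At an unadjusted *P* under 0.01 there were 3 (*Per2*, *Per3* and *Bhlhe41*), as in 3.25% of all genes. KO+AAV libraries held normalized *Per3* counts of 107, 168, 108, 160.2 and 95.9. All lay above every KO library and below every WT library. *Per3* was higher than in KO by 3.20 ± 0.35 (adjusted *P* = 1.61e-06, limma) and lower than in WT by 1.48 ± 0.35 (adjusted *P* = 0.00492), its mean standing at 36.2% of WT. Of the 8 repressors 2 were called between WT and KO+AAV, where 12.5% of all genes were called, and the same 2 had an unadjusted *P* under 0.01 (14.6%) and stood apart (11.7%). The other of them was *Bhlhe40*, at 618, 700.3, 639, 816 and 714 in KO+AAV. These *Bhlhe40* values stood apart from WT, by 1.37 ± 0.20 (adjusted *P* = 1.18e-05), and overlapped KO, from which they differed by 0.31 ± 0.20 (adjusted *P* = 0.630).

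*Bhlhe41* with the vector was 749, 547, 605, 978 and 675. It stood apart from KO, as did 1.08% of all genes, yet its difference of 1.28 ± 0.31 missed the threshold (adjusted *P* = 0.0640). The *Bhlhe41* call was gained without KO replicate 4 (adjusted *P* = 0.0191) or KO replicate 5 (adjusted *P* = 0.0182). *Per2* was 159, 211, 128, 209 and 242 in KO+AAV, at 98.1% of the WT mean. Its 0.80 ± 0.21 over KO also missed the threshold (adjusted *P* = 0.107), and was called without KO replicate 2 (adjusted *P* = 0.0457) or KO+AAV replicate 3 (adjusted *P* = 0.0498). *Ciart* was 15.9, 73.0, 18.9, 22.9 and 18, and it was called against neither KO (adjusted *P* = 0.615) nor WT (adjusted *P* = 0.308).

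**Figure D2:**
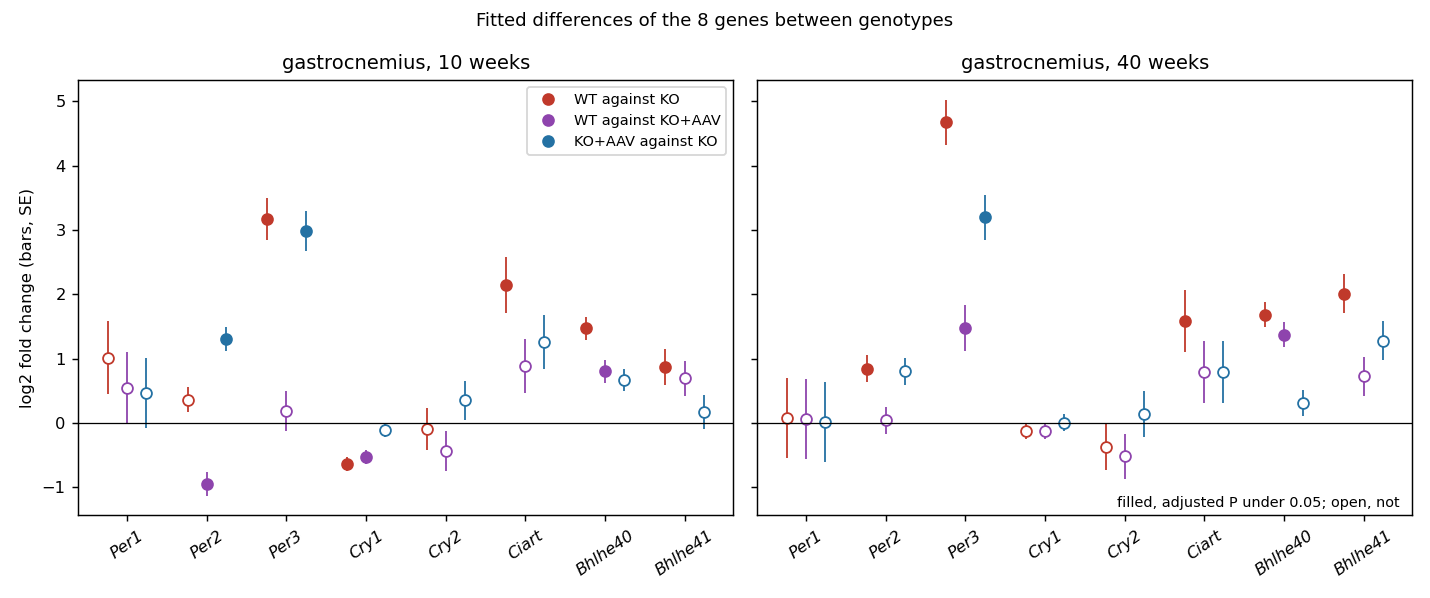
Fitted log2 fold changes (points, filled where the adjusted *P* was under 0.05) and their standard errors (bars) for the 8 repressors in gastrocnemius, for WT against KO, KO+AAV against KO and WT against KO+AAV at 10 and 40 weeks. *Per3* has the largest change in WT against KO, 3.18 at 10 weeks and 4.67 at 40 weeks, and *Cry1* at 10 weeks is below 0 by -0.64.

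Few repressors changed between 10 and 40 weeks within a genotype. Age is tied to the sequencing site in part, since all 40-week muscle libraries came from Novogene. In WT, *Per2* rose by 1.05 ± 0.22 (adjusted *P* = 0.0354, limma), 1 of 8 repressors called beside 0.148% of all genes, and 1 with an unadjusted *P* under 0.01 beside 2.27%. All 40-week WT libraries, at 152 or more, lay above all 10-week ones, at 132 or less, as groups stood apart in 2.64% of all genes. That *Per2* call was lost in 7 of the 11 fits that left out 1 library (replicate 2, 4, 5 or 7 at 10 weeks, 1, 2 or 3 at 40 weeks), up to an adjusted *P* of 0.133 without 10-week replicate 5. With Novogene libraries alone the difference was 1.12 (adjusted *P* = 0.301). In KO, 2 of 8 were called beside 8.31% of all genes, the same 2 had an unadjusted *P* under 0.01 beside 12.1%, and 3 stood apart (*Cry1*, *Cry2* and *Bhlhe41*) beside 4.94%. *Bhlhe41* fell by 1.39 ± 0.31 on the log2 scale (adjusted *P* = 0.00693, limma), and by 1.5 with Novogene libraries alone (adjusted *P* = 0.0258). *Cry1* fell by 0.43 ± 0.13 (adjusted *P* = 0.0363), a call lost in 5 of the 11 fits without 1 library (replicate 3, 5 or 6 at 10 weeks, 2 or 4 at 40 weeks). Without 40-week KO replicate 2 the *Cry1* value was -0.30 (adjusted *P* = 0.160), and with Novogene libraries alone -0.45 (adjusted *P* = 0.127). DESeq2 called *Per1* as higher at 40 weeks (1.97, adjusted *P* = 0.0418) and edgeR *Cry2* (1.59, adjusted *P* = 0.0164). Calls were gained for *Per3* without 10-week KO replicate 7 (-1.23, adjusted *P* = 0.0364) or 40-week KO replicate 4 (-1.14, adjusted *P* = 0.0360), for *Per2* without the latter (0.74, adjusted *P* = 0.0248), and for *Cry2* without 40-week KO replicate 1 (1.17, adjusted *P* = 0.0482) or 5 (1.16, adjusted *P* = 0.0413). In KO+AAV none of the 8 was called by limma (8.53% of all genes) and none had an unadjusted *P* under 0.01 (12.1%). The lowest values by limma were those of *Cry1* (unadjusted *P* = 0.0185) and *Cry2* (unadjusted *P* = 0.0373), and DESeq2 called 1, *Per3*.

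Whether a genotype difference itself changed with age was tested as an interaction, and none of the 8 was called in any of the 3 interactions by limma. Of all genes, 0.370% were called for WT against KO, 0.642% for WT against KO+AAV and 0.00617% for KO+AAV against KO. The largest member value was that of *Per3* for WT against KO, 1.5 ± 0.48 (unadjusted *P* = 0.00386, adjusted *P* = 0.159). At an unadjusted *P* under 0.01 there were 3, 1 and none in turn, beside 4.47%, 4.12% and 1.08% of all genes. Without 40-week KO replicate 4 the *Per3* value was 1.80 (adjusted *P* = 0.0496). *Cry1* gave 0.52 ± 0.17 (unadjusted *P* = 0.00507, adjusted *P* = 0.172) and *Bhlhe41* 1.14 ± 0.41 (unadjusted *P* = 0.00955, adjusted *P* = 0.220). For WT against KO+AAV, *Per2* gave 0.98 ± 0.28 (unadjusted *P* = 0.00151, adjusted *P* = 0.110) and *Per3* 1.29 ± 0.47 (unadjusted *P* = 0.0103, adjusted *P* = 0.246). DESeq2 on the recovered reads called 1 of the 8 repressors, *Per3*, in the first of these interactions and 2, *Per2* and *Per3*, in the second. No share of all genes is set beside the calls by DESeq2 or edgeR.

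A pair of 40-week muscle libraries lay far above the rest for *Cry2* and carried much of its spread. For *Per1* 1 of them, KO replicate 2, lay far above the rest. *Per1* was 418, 3768, 513, 277 and 247 in KO, 277, 1453, 287, 459 and 1085 in KO+AAV and 251, 1112, 996, 851 and 306 in WT. *Cry2* was 604, 4957, 808, 685 and 609.5 in KO and 756, 2515, 877, 1067 and 935 in KO+AAV, against 638 to 893 in WT. In both genes KO replicate 2 and KO+AAV replicate 2 were the highest of their groups. The summed normalized count of a list of 15 glucocorticoid-induced genes was 179342 and 108548 in these libraries. It was 27210 to 67582 in the other KO libraries at 40 weeks, 26774 to 41801 in the other KO+AAV libraries and 18838 to 26089 in WT. KO replicate 2 also held the lowest *Per3*, *Bhlhe41* and *Cry1* of its group, and KO+AAV replicate 2 the highest *Ciart*. The part of these libraries' state in the member values was not tested, but the fits were repeated without both. *Per3* then differed between WT and KO by 4.28 ± 0.31 (adjusted *P* = 3.02e-11) and between KO+AAV and KO by 2.69 ± 0.33 (adjusted *P* = 2.3e-05), and the WT against KO count stayed at 5. *Per1* differed between WT and KO by 0.76 ± 0.54 (adjusted *P* = 0.341) in place of 0.08. With both left out, *Cry2* was called as higher at 40 than at 10 weeks in WT, by 0.70 ± 0.14 (adjusted *P* = 0.0177), and in KO+AAV, by 0.48 ± 0.15 (adjusted *P* = 0.0441). These calls, made after the values were seen, were absent with all libraries in the fit.

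**Figure D3:**
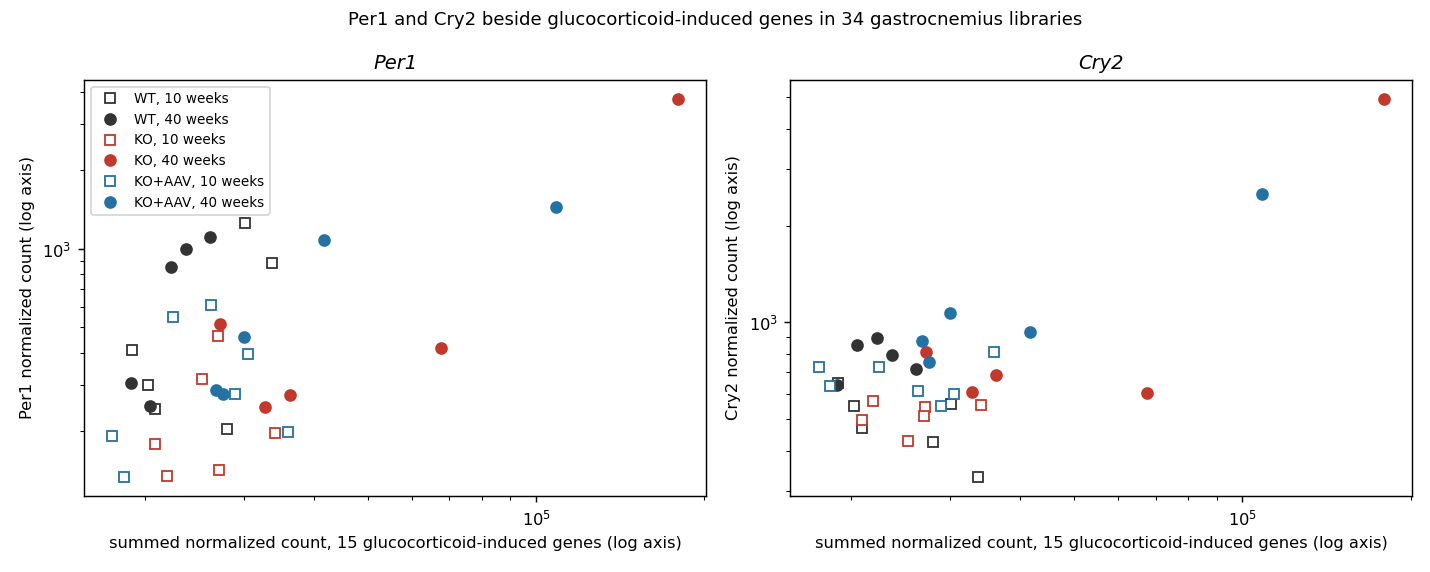
Normalized counts of *Per1* and *Cry2* (log axes) against the summed normalized count of 15 glucocorticoid-induced genes in the 34 gastrocnemius libraries, 1 point per library (squares, 10 weeks; circles, 40 weeks; colour, genotype). The sums of 179342 and 108548 belong to KO replicate 2 and KO+AAV replicate 2 at 40 weeks, which have the highest *Cry2* of the 34, 4957 and 2515.

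Sums of some cell type marker lists also moved with some of these comparisons. In bulk tissue fewer cells of a type and less RNA per cell cannot be told apart. Summed counts of 5 fibroblast markers were 5814 to 9449 in 40-week WT and 2200 to 5271 in 40-week KO, without overlap, 2 of the 5 standing apart on their own and none at 0. In KO+AAV the fibroblast sum was 11829 to 112875 at 10 weeks and 1641 to 8618 at 40 weeks. The 4 airway basal cell markers, of which *Krt5*, *Krt14* and *Krt15* were at 0 in some libraries, summed to 112 to 178 in WT and 220 to 354 in KO at 10 weeks. At 40 weeks it summed to 148 to 228 in WT, 326 to 582 in KO and 355 to 831 in KO+AAV, with WT apart from both. The KO+AAV sum at 10 weeks was 118 to 245, apart from that at 40 weeks, and in the GFP experiment the sum was 61.1 to 91.6 in KO+GFP and 128 to 229 in controls. In each of these comparisons without overlap 1 of the 4 markers stood apart on its own. These sums are therefore not read as airway cells in muscle. The part of either list in the member values was not tested. Sums of 6 macrophage markers overlapped in every comparison of the 3 genotypes at either age.

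The GFP experiment asked whether the vector alone, without *Bmal1*, moves these genes in KO muscle. It gave calls for *Per2* and *Bhlhe41*, 2 of the 8 repressors, beside 3.09% of 14477 genes tested, and the same 2 had an unadjusted *P* under 0.01 beside 8.24%. *Per2* was 51.8, 79.3 and 62.6 in KO+GFP and 29.8, 31.8 and 35.2 in KO controls. All GFP libraries lay above all controls, by 0.96 ± 0.21 on the log2 scale (adjusted *P* = 0.0324, limma, n = 3 and 3). *Bhlhe41* was 189, 223 and 206 in KO+GFP and 243, 438 and 469 in controls, lower with GFP without overlap, by -0.84 ± 0.20 (adjusted *P* = 0.0450, limma). *Per3* was 9.0, 22.3 and 13.2 in KO+GFP and 21.8, 10.2 and 7.25 in controls. These few reads, 7 to 27 per library, overlapped, with a difference of 0.22 ± 0.45 (adjusted *P* = 0.848). *Ciart*, at 2 to 14 reads, stood apart by 1.04 ± 0.49 (adjusted *P* = 0.283), and *Cry2* by -0.19 ± 0.11 (adjusted *P* = 0.387), with groups standing apart in 23.5% of all genes. *Per1*, *Cry1* and *Bhlhe40* overlapped and were not called.

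Both calls in the GFP experiment were close to the threshold. Each was lost in 5 of the 6 fits that left out 1 library, *Per2* up to an adjusted *P* of 0.153 without KO+GFP replicate 3 and *Bhlhe41* up to 0.172 without the same library. *Per2* stayed called without KO+GFP replicate 1 and *Bhlhe41* without control replicate 1. Several marker sums moved with the groups as well. Those of 6 macrophage markers were 387 to 445 in KO+GFP and 162 to 214 in controls, with 5 of 6 apart. Those of 5 Schwann cell markers were 388 to 474 and 1002 to 1167, all 5 lower with GFP, and those of 3 satellite cell markers 114 to 165 and 182 to 199. The 6 skeletal muscle fiber markers summed to 914285 to 985287 with GFP and 1128650 to 1321960 in controls. No marker of these 4 lists was at 0. Of the 15 glucocorticoid-induced genes 3 were higher and 1 lower with GFP, and their sums were 18082 to 23462 against 9589 to 12933. The part of any of these in the *Per2* and *Bhlhe41* differences was not tested. The GFP experiment was normalized on its own, so its *Per2* difference of 0.96 from its controls and the 1.30 between KO+AAV and KO come from separate fits, and the difference between them was not tested.

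**Figure D4:**
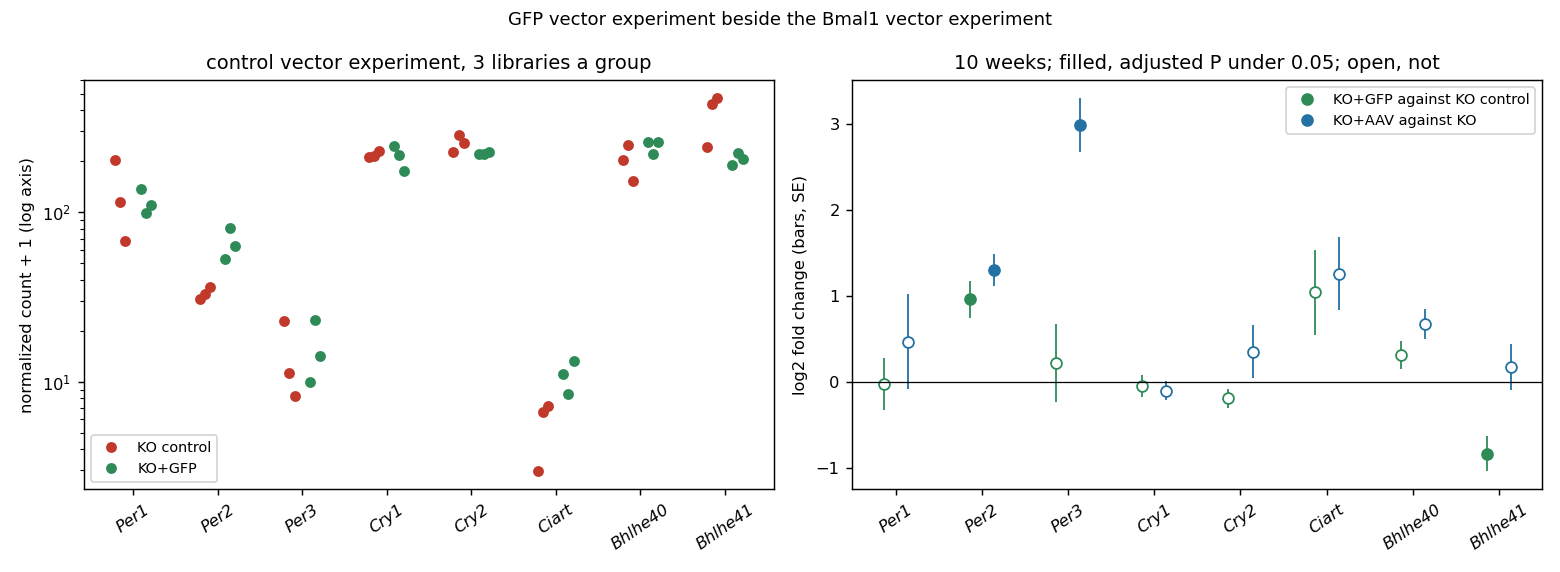
Left, normalized count + 1 (log axis) of the 8 repressors in 3 KO+GFP and 3 KO control libraries, 1 point per library; right, log2 fold changes with standard errors for KO+GFP against control and KO+AAV against KO at 10 weeks, filled where the adjusted *P* was under 0.05. *Per2* at 51.8 to 79.3 lies above its controls at 29.8 to 35.2, *Bhlhe41* at 189 to 223 lies below its controls at 243 to 469, and *Per3* overlaps.

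In lung, liver, heart and white fat at 40 weeks none of the repressors was called between KO+AAV and KO by limma. Of all genes 0.0237% were called in lung and 0% in each of liver, heart and white fat. At an unadjusted *P* under 0.01 there was 1 member in lung beside 3.96% of genes, and none in liver, heart or white fat beside 0.546%, 0.0829% and 0.0711%. The values of the 2 members with the lowest unadjusted *P* in lung are given here. Those were *Bhlhe40*, at 2146, 1825, 2053 and 1801 in KO and 1689.7, 1469.7, 1347 and 1717 in KO+AAV, and *Ciart*, at 849.7, 1034, 1067 and 859.5 in KO and 1064, 1654, 1022 and 1346 in KO+AAV. *Bhlhe40* stood apart, as did 6.77% of genes in lung, with a difference of -0.33 ± 0.10 (unadjusted *P* = 0.00747, adjusted *P* = 0.234), and *Ciart* overlapped, with 0.40 ± 0.16 (adjusted *P* = 0.373). Lung KO+AAV libraries also held more of the 6 cardiomyocyte markers, with sums of 65402 to 209693 against 3881 to 38123 in KO, all 6 standing apart with *Nppa* at 0 in some library. Sums of 4 airway basal cell markers were 100 to 382 against 39.2 to 59.4 (3 apart), and those of 5 Schwann cell markers were lower, 21521 to 23404 against 25867 to 32568 (2 apart). The part of these tissues' RNA in the lung values was not tested.

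*Per3*, of the 8 the one most raised by the vector in muscle, overlapped between the groups elsewhere. It was 1148, 983, 872 and 933 in KO lung and 822, 952, 878 and 835 in KO+AAV lung, a difference of -0.17 ± 0.10 (adjusted *P* = 0.519). In liver it was 199, 368, 253 and 259 in KO and 374, 202, 310.0 and 301 in KO+AAV, a difference of 0.14 ± 0.23 (adjusted *P* = 0.997). In white fat it was 1474, 721, 1058 and 1249 in KO and 1599.9, 651, 1249.9 and 1256 in KO+AAV, a difference of 0.06 ± 0.32 (adjusted *P* = 0.964). In none of these 3 tissues was one group wholly above the other. In heart, also a muscle, *Per3* was 123, 343, 97.0 and 129 in KO and 126, 125, 105 and 143 in KO+AAV, a difference of -0.29 ± 0.37 (adjusted *P* = 0.867). The value of 343 came from KO heart replicate 2, in which 6 hepatocyte markers summed to 1497560 beside 577 or less in the other 7 heart libraries, all 6 above every other library and none at 0. Without it the *Per3* difference was 0.11 ± 0.17. The same library held the highest *Bhlhe40* in heart, 4152 beside 873, 929 and 992 in its group, and the highest *Cry1*, 2885 beside 1605 to 1936. Whether liver tissue set these values was not tested.

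The DEC genes varied most in white fat. *Bhlhe40* was 818, 6351, 3215 and 7636 in KO and 643, 5085, 775 and 592 in KO+AAV, and *Bhlhe41* was 1163, 4956, 1327 and 3513 in KO and 876, 2732, 735 and 710.2 in KO+AAV. Neither difference passed the test, at -1.60 ± 0.90 for *Bhlhe40* and -1.11 ± 0.60 for *Bhlhe41* (adjusted *P* = 0.907 for both). The sum of 4 epididymis markers was 1327220 in KO replicate 2, 1110 in KO replicate 3, 774 in KO+AAV replicate 2 and 42 or less in the others, and none of the 4 markers was at 0 in KO replicate 2. With those 3 libraries left out, the differences were -1.91 ± 0.84 for *Bhlhe40* and -1.39 ± 0.43 for *Bhlhe41* (adjusted *P* = 0.999 for both). KO replicate 4, with the highest *Bhlhe40* of 7636, had an epididymis marker sum of 1.08.

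Compared per length at 40 weeks, with both genotypes pooled, the repressors differed in where they were abundant. *Ciart* was highest in lung, with a median of 10.7 FPKM (8.18 to 16.6) and no more than 1.90 FPKM in any library of gastrocnemius, heart, liver or white fat. *Bhlhe41* was near 0 in liver, at 0.00353 to 0.0321 FPKM or 1 to 8 reads per library, and fell under the filter there, while the other tissues held 0.767 FPKM or more. Its paralog *Bhlhe40* had its highest median in liver, 34.9 FPKM (18.6 to 64.2), with a range that overlapped white fat (2.44 to 33.7). These related repressors sat at opposite ends of the order in liver. *Cry1* had medians of 28.7 FPKM in lung, 23.4 in liver, 18.5 in white fat, 11.9 in heart and 7.36 in gastrocnemius, and the ranges of liver (21.0 to 27.5) and lung (26.8 to 31.3) touched. The *Cry1* range in white fat (16.7 to 28.4) overlapped those of liver, lung and heart (10.1 to 17.5). *Per2* had medians of 15.8 FPKM in lung and 1.44 in gastrocnemius. *Per3* had medians of 2.62 in white fat and 2.18 in lung, whose ranges overlapped, and of 0.705 in liver and 0.323 in heart. In gastrocnemius *Per3* ran from 0.0199 to 1.03 FPKM over both groups, the KO and KO+AAV libraries lying on opposite sides of that range. All of these libraries came from *Bmal1* knockouts.

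**Figure D5:**
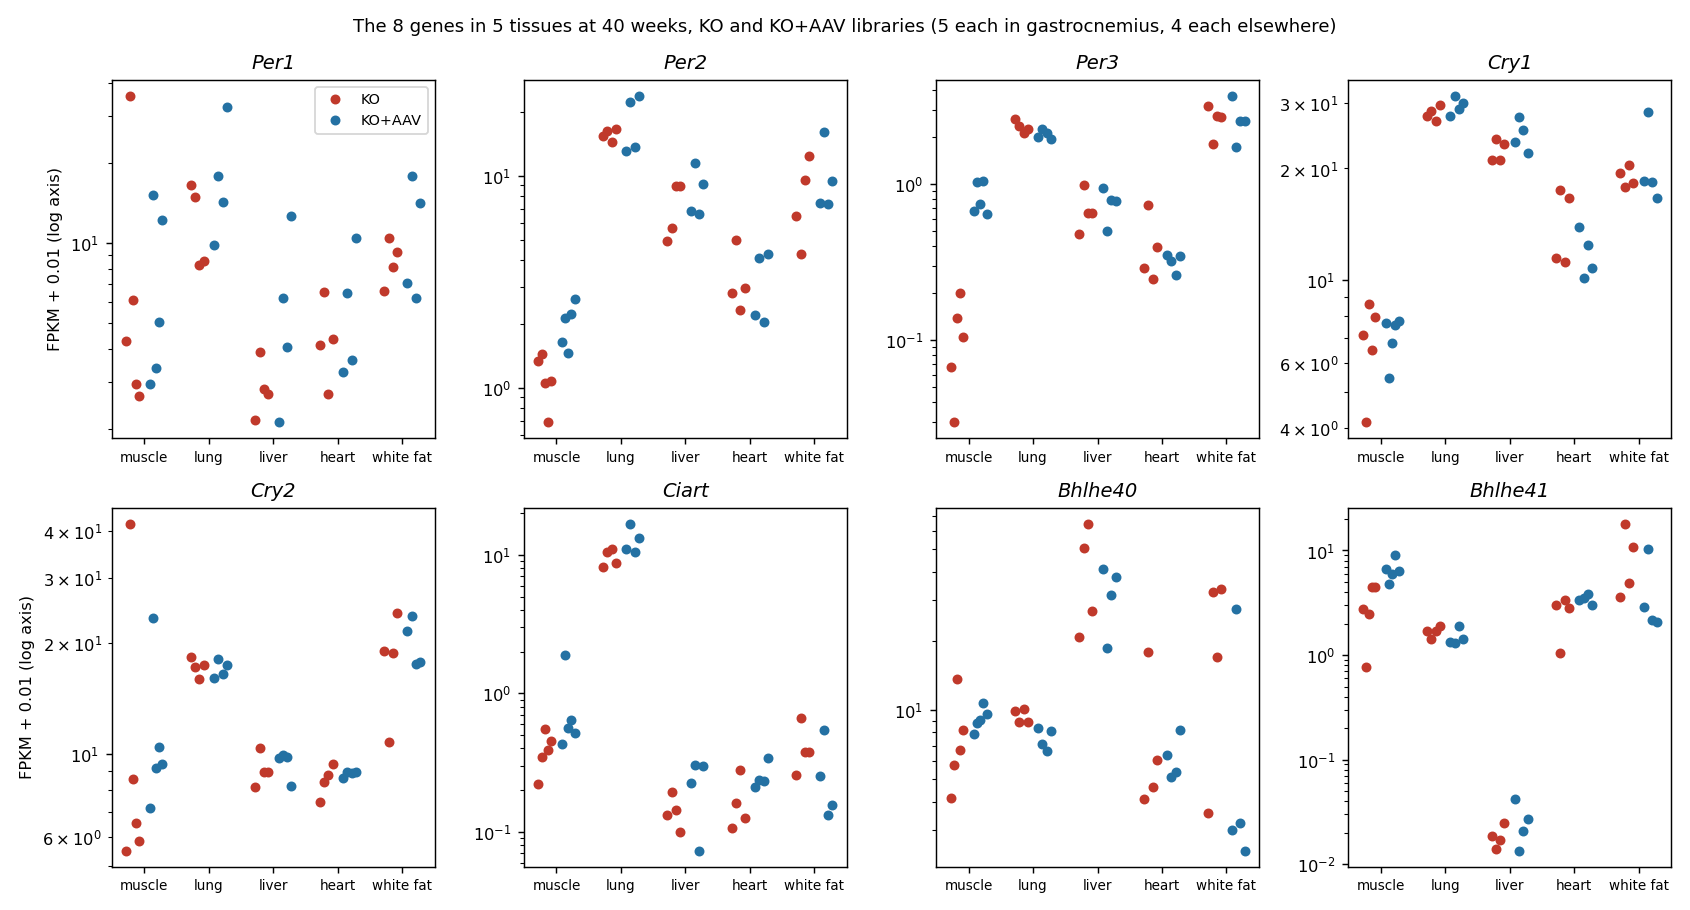
FPKM + 0.01 (log axis) of the 8 repressors in 5 tissues at 40 weeks (gastrocnemius, lung, liver, heart, white fat), 1 point per library, coloured as KO or KO+AAV. *Ciart* is highest in lung (8.18 to 16.6 FPKM), *Bhlhe41* is lowest in liver (0.0321 FPKM or less), and KO and KO+AAV separate for *Per3* in gastrocnemius alone among the 5 tissues.

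*Per1* varied within groups in every tissue. In KO+AAV it was 495, 1514, 951 and 2909.6 in liver, 2364, 4423, 3491 and 8209 in lung, 713, 1536, 897 and 2592 in heart and 1815, 3951, 1788 and 4096 in white fat. Replicate 4 was the highest in 4 of 4 tissues. No other repressor in either genotype, nor *Per1* in KO, had 1 number highest in all 4, so this was the most extreme case of those looked at. Sums of the glucocorticoid-induced list were also highest in replicate 4 in liver (109672), lung (111951) and white fat (82174), but in replicate 2 in heart (108114). The labels do not say whether libraries of 1 number came from 1 mouse. In KO the library most often highest for *Per1* was so in 2 of 4 tissues.

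The balance between the cryptochromes was read as the ratio of *Cry1* to *Cry2* in FPKM within each library. At 10 weeks the median ratio was 1.90 in KO (1.85 to 2.03), 1.34 in WT (0.946 to 2.0) and 1.34 in KO+AAV (1.16 to 1.77). KO therefore stood apart from KO+AAV but not from WT. At 40 weeks the median was 0.883 for WT, 1.01 for KO and 0.737 for KO+AAV, and the lowest ratio of all, 0.0991, was that of KO replicate 2. Liver held the highest ratios among the other tissues, with medians of 2.47 in KO and 2.62 in KO+AAV.

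Over the 34 gastrocnemius libraries, after the site effect was subtracted, each repressor had its own closest genes by Pearson's r of the log2 values. These libraries share genotype, age and depth groups, so the values are descriptions. *Per3* was most like *Hlf* (0.93), *Dbp* (0.93) and *Nr1d2* (0.92), of which *Hlf* and *Dbp* encode D-box activators and *Nr1d2* a nuclear receptor of the clock. *Bhlhe40* was most like *Nr1d1* (0.88), *Mreg* (0.88) and *Slc2a3* (0.87), and *Bhlhe41* like *Smtnl2* (0.96), *Adgrl1* (0.93) and *Kctd15* (0.93). *Cry1* was most like *Ppp2r5a* (0.82), *Trim35* (0.80) and *Afap1l1* (0.77), and *Cry2* like *Trafd1* (0.93), *Retreg1* (0.92) and *Mtmr4* (0.91). *Per1* was most like *Fam107a* (0.84), *Csrnp1* (0.83) and *Arrdc2* (0.83), *Per2* like *Tmc4* (0.74), *Gm7658* (0.62) and *Gm48952* (0.62), and *Ciart* like *Ush1c* (0.78), *Gm34342* (0.77) and *Tbc1d1* (0.76). No repressor was among the 3 closest genes of another. Between members r was 0.77 for *Per3* and *Bhlhe40*, 0.72 for *Per3* and *Bhlhe41* and 0.69 for *Ciart* and *Bhlhe40*, and the lowest was -0.58 for *Per1* and *Cry1*.

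The rest of the pathway was read from lists of related genes. The lists were made with earlier results of these data known, so their counts are descriptions. Of 7 genes listed as E-box output genes, 5 were higher in WT than in KO at 10 weeks and 5 at 40 weeks, where 4.26% and 12% of all genes were higher, and none was lower, with medians of 0.68 and 1.20 on the log2 scale beside -0.01 and 0.01 over all genes. With the vector, 2 of the 7, *Dbp* and *Hlf*, were higher than in KO at each age (medians over the 7 of 0.42 and 0.40, beside 0.01 and 0.02 over all genes), as were 0.136% and 0.222% of all genes. At 10 weeks 2 and at 40 weeks 4 of the 7 were higher in WT than in KO+AAV, as were 2.94% and 6.05% of all genes. Of 9 tested activators and other loop genes, 3 were higher and 3 lower in WT than in KO at 10 weeks and 2 and 4 at 40 weeks, beside 4.26% higher and 3.74% lower of all genes at 10 weeks and 12% and 11.5% at 40 weeks. These shares are the background for every WT against KO list count that follows. *Npas2* and *Clock*, partners of BMAL1, were among the lower ones at both ages. The list also holds *Arntl*, the deleted gene itself. It was among those higher in WT at 10 weeks and was not called at 40 weeks. With the vector, 1 of these 9, *Nr1d2*, was higher than in KO at each age. Of 23 tested kinases, ligases and partners of the period and cryptochrome proteins, which set how long those proteins last, 1 was higher and 1 lower in WT than in KO at 10 weeks, 3 and 1 at 40 weeks, and none in either direction between KO+AAV and KO at either age. Of all genes 0.204% and 0.259% were called between KO+AAV and KO at 10 and 40 weeks.

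Other inputs to these genes were counted in the same way. Of 17 cAMP-responsive and immediate early genes, 1 was higher and 1 lower in WT than in KO at 10 weeks, and 1 and 3 at 40 weeks. Of 15 glucocorticoid-induced genes, none was higher, 1 was lower in WT at 10 weeks and 5 at 40 weeks, with a median of 0.25 at 10 weeks and -0.68 at 40 weeks beside -0.01 and 0.01 over all genes. Of 16 tested hypoxia-induced genes, 2 and none moved at 10 weeks, and 3 and 1 at 40 weeks. None of these 3 lists held a called gene between KO+AAV and KO at either age, where 0.204% and 0.259% of all genes were called. Between 10 and 40 weeks no gene of any of the 6 lists was called in WT, beside 0.148% of all genes. In KO 2 loop genes were higher, 1 output gene lower, and 2 kinases, ligases or partners higher and 1 lower. Also higher were 1 cAMP-responsive, 2 glucocorticoid-induced and 3 hypoxia-induced genes, beside 8.31% of all genes. In KO+AAV 1 loop gene was higher and 1 lower, 2 output genes lower, and 2 kinases, ligases or partners higher. So were 4 cAMP-responsive and 1 glucocorticoid-induced gene, with 1 hypoxia-induced gene higher and 1 lower, beside 8.53%. In KO+GFP against controls, *Nr1d1* was lower among the loop genes, no output gene was called, and 1 cAMP-responsive and 1 hypoxia-induced gene were higher, and 3 glucocorticoid-induced genes were higher and 1 lower, where 1.83% of all genes were higher and 1.26% lower. No gene of any list was called in lung, where 0.0237% of all genes were called. In liver, heart and white fat 0% of all genes were called, so no list could hold a called gene there.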

How the data were processed

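Per the labels and the study's methods, poly(A) libraries were prepared from RNA of each tissue, sequenced at 2 sites, aligned with HISAT2 to GRCm38 and counted per gene with HTSeq. Before deposit, the authors divided these counts by DESeq2 size factors, in 2 tables, so the deposited values are a normalized signal and not raw counts. Every value was a whole number of reads times a factor of its library (within 0.1 reads), which gave back the reads behind it. All 72 libraries were assigned to groups by the labels, and no 2 libraries held identical values. The 34 main gastrocnemius libraries were fitted together as 6 groups with the sequencing site as a term, following the study's covariate, and the GFP experiment and each other tissue on its own. The test was limma 3.58.1 with a mean-variance trend on log2(normalized count + 1), for genes with a mean above 5 and with Benjamini-Hochberg adjustment over all genes tested; edgeR 4.0.16 and DESeq2 1.42.0 on the recovered reads were alternatives. The study itself called genes at an unadjusted P under 0.01, so counts at that threshold are given too. FPKM values were computed from the recovered reads and GENCODE exon lengths. Nothing in the labels says that libraries of different tissues came from different mice. The 8 genes were named in all comparisons; the other lists and this choice were made with earlier results of these data known. For likeness, the 3 tested genes with the highest Pearson's r were named. Genes of other lists were named where they were the only ones counted or matched a member. Replicate numbers were not used as pairs in the main fits. Correlations of same-numbered deviations from the group means ran from -0.383 to 0.577, and in no comparison were all above 0.1. With so few libraries a group these values cannot exclude a pairing. The test was tried on simulated data first. Libraries are separate samples per the labels, and counting error limits *Per3* and *Ciart* in KO muscle, at 1 to 80 reads.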

Additional observations from a re-analysis of the deposited data

Results flagged for a closer look

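A member was listed when the highest or lowest library of a group of 4 to 10 lay far from the rest of its group (Dixon's ratio above its 95% critical value). That was so in 10 of 112 groups. Chance alone lists about 1 group in 20 where values are normally distributed and groups independent. The normalized counts were not put on a log scale and groups of different genes share libraries, so that rate is a rough guide here.

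In gastrocnemius at 40 weeks, KO replicate 2 had 3768 normalized counts of *Per1* and 4957 of *Cry2*, and KO+AAV replicate 2 had 2515 of *Cry2* and 73.0 of *Ciart*, all the highest of their groups. At 10 weeks KO+AAV replicate 3 had the highest *Bhlhe41* of its group, 1485. In white fat KO+AAV replicate 2 had the highest *Bhlhe40*, 5085, and the highest *Bhlhe41*, 2732. In heart KO replicate 2 had the highest *Bhlhe40*, 4152, and the highest *Per3*, 343. In lung KO replicate 3 had the lowest *Per2* of its group, 3620.0. The marker sums that moved with the heart, white fat and 40-week muscle libraries are given with their values above, and the cause of each value was not tested.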

How the results depend on the processing

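Of 23 called differences, 11 stayed called in the same direction under every alternative that tested them, 1 of which (*Ciart* for WT against KO at 40 weeks) went untested under the filter at a mean above 50, and of 112 uncalled ones 96 were called under none; no difference that was called changed sign. Counts of called repressors moved as follows. Between WT and KO+AAV at 10 weeks the count of 3 was 0 with ICBR libraries alone and 1 with Novogene libraries alone (*Bhlhe41*). Between KO+AAV and KO at 10 weeks the count of 2 was 1 at each site alone, *Per3* at ICBR and *Per2* at Novogene, and 3 with DESeq2, which added *Bhlhe40*. Between WT and KO+AAV *Bhlhe41* was also called with the replicate block at both ages and with the 2 groups alone at 40 weeks. Between KO+AAV and KO at 40 weeks the count of 1 was 2 with DESeq2 and 2 with a replicate block, both adding *Bhlhe41*. For age in WT the count of 1 was 0 with the replicate block, with Novogene alone and with the 2 groups alone, and 2 without KO and KO+AAV replicate 2 of 40 weeks, a choice made after seeing the data (*Per2* and *Cry2*). For age in KO the count of 2 was 0 with the replicate block and with the 2 groups alone, and 1 with no filter, with Novogene alone and without both replicate 2 libraries (*Bhlhe41* in the last 2), while DESeq2 added *Per1* and edgeR *Cry2*. For age in KO+AAV the count of 0 was 1 with DESeq2 (*Per3*), with no site term (*Cry1*) and without both replicate 2 libraries (*Cry2*). The interactions of age with WT against KO and WT against KO+AAV gave 1 and 2 with DESeq2. The GFP experiment gave 0 with a mean above 50, where *Bhlhe41* was not called and *Per2* went untested. The block assumes a pairing by number that was not established, and it moved no other count by over 1.5 times. Leaving out 1 library at a time gave 4 to 5 for WT against KO at 10 weeks, 1 to 2 for KO+AAV against KO at 40 weeks, 0 to 1 for age in WT, 1 to 3 for age in KO, 0 to 1 for the interaction with WT against KO and 0 to 1 for the GFP experiment, and no other count moved. Fits on fewer libraries have less power by construction; the cause of the other moves was not tested. Depth limits *Ciart*, which a filter at a mean above 50 drops from the muscle fits at both ages, so that its calls against KO cannot be made there.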
